A study of Mus musculus with 7 samples.

Results

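Guidance cue genes of the Eph, ephrin, Slit, Robo and netrin families were followed in the Wnt1-Cre lineage of the mouse pharyngeal apparatus. The members were chosen by name: every symbol in the deposited gene lists made of Epha, Ephb, Efna, Efnb, Slit or Robo and a number, plus Ntn1, Ntn3, Ntn4, Dcc and Unc5a to Unc5d. That gave 37 of the 32285 genes measured. They are 9 EphA receptors, 5 EphB receptors, 5 ephrin-A ligands, 3 ephrin-B ligands, 3 Slit ligands, 4 Robo receptors, 3 netrin ligands and 5 netrin receptors.

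Eph receptors are tyrosine kinases that are bound by ephrins on the surface of a neighbouring cell, so the signal passes where cells touch, and it can pass into the ephrin-bearing cell as well. EphA receptors mostly bind the membrane-linked ephrin-A proteins and EphB receptors the transmembrane ephrin-B proteins, with EphA4 binding both kinds. Slits are secreted ligands of Robo receptors, and netrins are secreted ligands of Dcc and the Unc5 receptors. These systems steer growing axons, and Eph and ephrin proteins also keep streams of migrating neural crest cells apart on their way into the pharyngeal arches.

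The data were single-cell RNA counts from 7 libraries of EGFP+ DAPI- sorted cells from embryos of a mixed Swiss-Webster background, each library a pool of embryos. All groups carried Wnt1-Cre/+ and ROSA-EGFPf/+, so EGFP marked the descendants of cells that had expressed Wnt1-Cre, which are neural crest and dorsal neural tube. Control libraries were made at E8.5 (1 library, anterior part of the embryo), E9.5 (1 library, pharyngeal apparatus and heart) and E10.5 (2 libraries, arches 2 to 6 and heart). Tbx1 null libraries were made at E9.5 (1 library, the same region as its control) and at E10.5 (2 libraries, the region below arch 1 and heart); their titles read Tbx1null and the study's own list of libraries gives them as Tbx1-/-, whereas their genotype field reads Tbx1+/-. Tbx1 itself was at 0.537 CPM (counts per 1000000 UMIs of the class or library) at E8.5. It was at 0.709 CPM in the control and 0.651 in the null at E9.5, then at 5.19 and 3.8 CPM in the controls (671 and 549 UMIs) and 2.97 and 2.67 in the nulls (504 and 342 UMIs) at E10.5. Tbx1 transcripts were thus counted in the libraries titled null, and these 3′ tag counts do not check the genotype. Kit version 2 was used at E8.5, version 3 for the null library at E9.5 and null replicate 1 at E10.5, and version 3.1 for the others, so at E9.5 kit and genotype cannot be told apart. By the study's own list, null replicate 1 at E10.5 had fewer somites than the other E10.5 libraries.

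After filters, 5587 to 9557 cells per library remained, with a median of 14857 to 22882 unique molecules (UMIs) per cell, and libraries shared at most 0.41% of their barcodes. Cells were grouped into mesenchymal, Sox10, neural progenitor and neuronal classes by fixed markers, and in each library each class had the highest summed level of its own markers. Mesenchymal cells were split into Hox3 (at least 1 UMI of Hoxa3, Hoxb3 or Hoxd3), Hoxa2 (at least 1 UMI of Hoxa2 and none of those) and Hox-negative. Between 17.1% and 40.8% of the Hox3 and Hoxa2 cells at E9.5 and E10.5 were called on 1 UMI. First-arch mesenchyme is Hox-negative and was dissected away only at E10.5, so the effect of stage on Hox-negative cells cannot be told apart from that of dissection. In the null libraries at E10.5 only 210 and 101 Hox-negative cells were found, against 689 and 2110 in the controls. Null replicate 2 at E10.5 stood apart. The summed level of 5 neuronal markers in its mesenchymal classes was 151 to 155 CPM, against 21.4 to 26.7 in the other E10.5 libraries and 5.41 to 15.8 at E9.5. Its neural progenitor markers were also the highest in mesenchyme, as given below.

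At E10.5 most of the families were present in every class, but each class had its own mixture. In control mesenchyme 19 of 37 members reached 5 CPM in each of the 3 Hox classes and in both libraries, whereas 16 did so in Sox10 cells, 19 in neural progenitors and 24 and 23 in neurons. Hox-negative mesenchyme had 7 such members at E8.5, 11 and 14 at E9.5, then 19, 19, 19 and 24 at E10.5. The highest of the 6 classes was the same in all 4 E10.5 libraries for 21 members. For 11 of these it was the neuronal class (Dcc, Efna3, Epha2, Epha5, Epha8, Epha10, Ephb2, Robo1, Robo3, Robo4 and Slit2), for 6 the neural progenitors (Efnb1, Efnb2, Efnb3, Epha4, Epha7 and Unc5a) and for 4 the Hox-negative mesenchyme (Efna1, Efna4, Ephb3 and Ephb4). Robo4, best known from endothelium, was close to absent, with no level above 0.78 CPM. The levels are tags of the 3′ end scaled to a class total and are not compared between genes. A level summed over a class cannot tell more cells with a transcript from more transcript per cell.

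**Figure D1:**
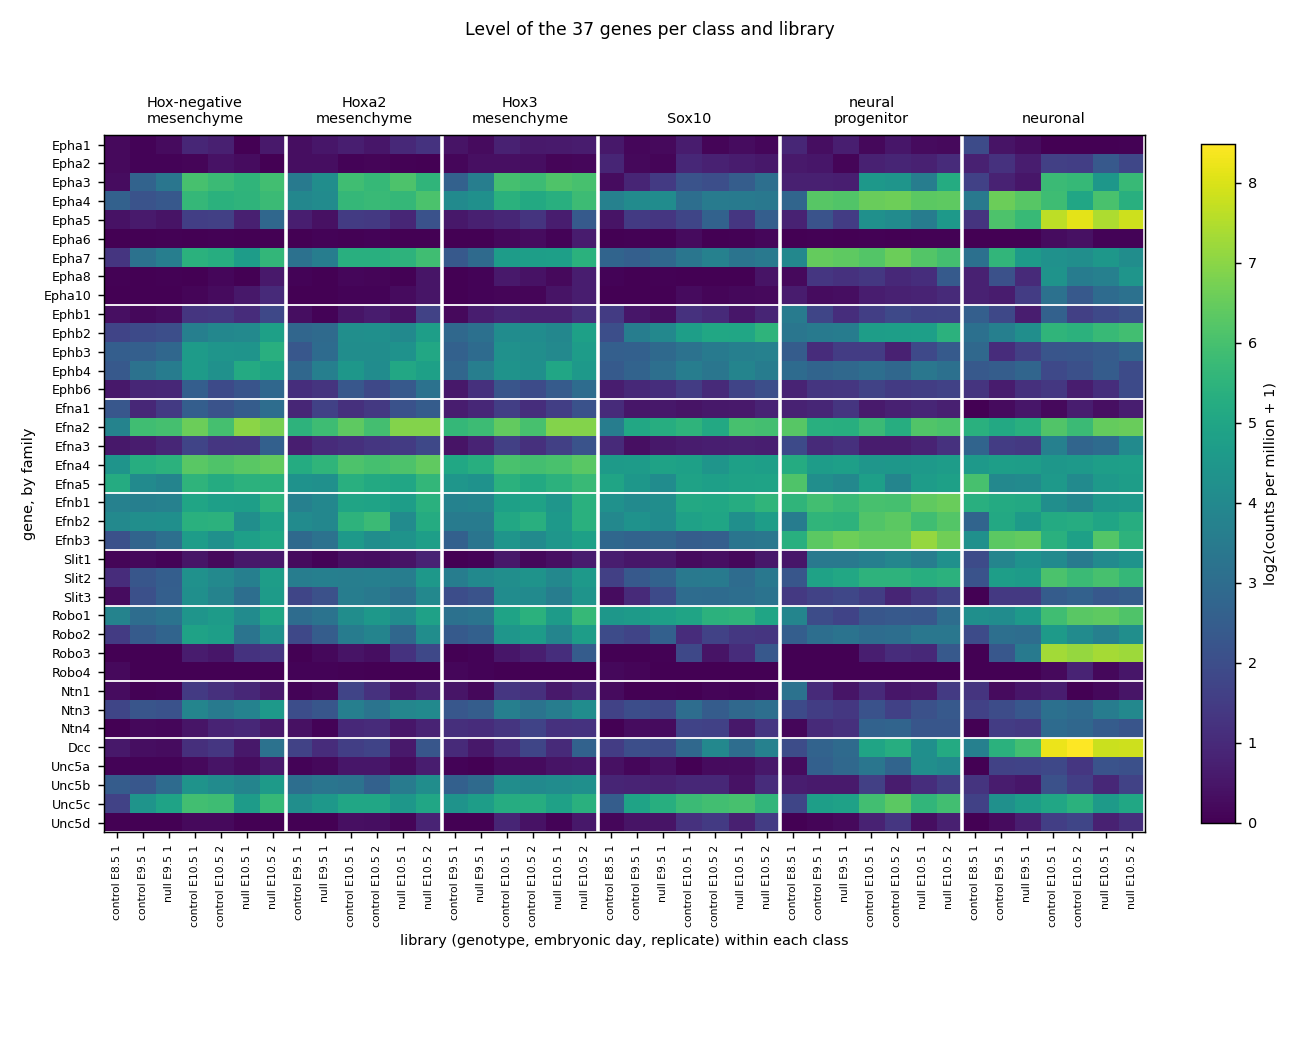
Level of each member (rows) in each class and library (columns), in CPM of UMIs summed per class on a log colour scale. In mesenchyme the Eph receptor rows Epha3, Epha4 and Epha7 brighten between E9.5 and E10.5, and Robo3, Dcc and Epha5 are bright in the neuronal columns of E10.5.

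Many members rose with stage in mesenchyme, and no fall was called there. Stages were compared over the 2 E9.5 and 4 E10.5 libraries with genotype as a covariate, on counts summed per library, and a change was called at an adjusted p under 0.05 (edgeR's quasi-likelihood test with Benjamini-Hochberg adjustment over all genes). In Hox-negative mesenchyme 24 of 31 tested members rose and 0 fell, where of all genes tested 16.5% rose and 17.9% fell. In Hoxa2 mesenchyme 16 of 32 rose and 0 fell, against 10.4% and 9.00% of all genes. In Hox3 mesenchyme 18 of 34 rose and 0 fell, against 14.4% and 12.7%. The members' median log2 change was 1.41, 1.16 and 1.21 in these 3 classes and that of all genes 0.05, 0.09 and 0.10.

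Markers of other cell types moved with stage in the same classes. Of the neuronal markers 4, 1 and 2 of 5 rose in Hox-negative, Hoxa2 and Hox3 mesenchyme, and of the 3 epithelial markers tested 3, 2 and 1 rose. The 4 epithelial markers summed to 6.4 and 5.13 CPM at E9.5 and to 47.2, 30.3, 18.1 and 32.7 at E10.5 in Hox-negative cells, and to 4.15 to 7.62, then 10.9 to 31.7 CPM in the Hox classes. The 5 endothelial markers summed to 0.597 to 3.39 CPM at E9.5 and to 1.24 to 10.2 at E10.5, where Pecam1 and Kdr rose in Hox-negative cells and Kdr in Hox3 cells, and Emcn fell in Hox-negative and Hoxa2 cells. The 5 markers of Sox10 cells went down, from 27.7 to 88.1 CPM at E9.5 to 5.07 to 16.2 CPM at E10.5. The 6 neural progenitor markers summed to 4.59 to 13.4 CPM at E9.5. At E10.5 they summed to 28.8 to 38.0 CPM in null replicate 2 and to 1.95 to 13.5 CPM in the other libraries. Of these Sox1 rose in Hox3 cells and Sox2 fell in Hoxa2 cells. The part of these changes in the rise of the members was not tested.

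Outside mesenchyme the changes were fewer or mixed. In Sox10 cells 8 of 32 members rose and 2 fell, against 11.9% and 10.4% of all genes. In neural progenitors 7 of 35 rose and 1 fell, against 7.44% and 6.26%. In neurons 16 of 32 rose and 5 fell, against 19.1% and 17.5%. The members' median log2 change was 0.41, 0.24 and 0.97 in these classes. Across the 6 classes 31 of the 36 members tested were called in at least 1 class: 30 rose somewhere, 7 fell somewhere and 6 did both. The counts across classes in this paragraph were not made for all genes, so no background share stands beside them. All 3 mesenchymal classes showed a rise for 15 members: 7 Eph receptors (Epha3, Epha4, Epha7, Ephb2, Ephb3, Ephb4 and Ephb6), 3 ephrins (Efna5, Efnb1 and Efnb3), Robo1, Robo2, Robo3, Slit3 and Ntn3. Of these only Epha3, Epha4, Epha7, Ephb3, Ephb4, Efnb3 and Robo1 were called in the 3 classes under each alternative that kept all libraries and tested them. Epha3, Ephb2 and Robo3 rose in all 6 classes, but Ephb2 was not called in the Hoxa2 and Hox3 classes with cells thinned to 5000 UMIs, and Robo3 was not called in Hox3 cells with doublets kept and not tested in the Hoxa2 and Hox3 classes with thinned cells.

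Of the 97 calls of a member in a class, 40 were lost under at least 1 alternative that kept all libraries. A call not tested under an alternative was not counted as lost, and the count was not made for all genes. In Hox-negative mesenchyme these were Efna1, Efna3, Epha5, Ntn4, Slit3 and Dcc, in Hoxa2 Ephb2, Ephb6, Slit3, Ntn1, Robo2, Ntn3 and Efna5, and in Hox3 Efna3, Ephb2, Ephb6, Efnb2, Robo3, Unc5b, Ntn3, Efna5 and Efnb1. In Sox10 cells they were Epha2, Epha4 and Robo2, and in neural progenitors Efna4 and Epha5. In neurons they were the rises of Efna2, Efna3, Ephb3, Ntn3, Ntn4, Slit3, Robo1 and Robo2 and all 5 falls, those of Epha4, Epha7, Ephb4, Efnb1 and Efnb3.

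The size of these counts rested on the E9.5 libraries and on the scaling. Without the control E9.5 library the members that changed numbered 11, 1, 3, 2, 3 and 8 (Hox-negative, Hoxa2, Hox3, Sox10, neural progenitor, neuronal), and without the null E9.5 library 19, 4, 11, 3, 4 and 12. Of all genes 34.4%, 19.4%, 27.1%, 22.3%, 13.7% and 36.6% changed with both libraries in, 11.6%, 0.938%, 3.83%, 4.32%, 2.21% and 16.3% without the control and 23.6%, 4.42%, 9.78%, 8.60%, 3.87% and 19.9% without the null. The fit used TMM factors, which centre the bulk of genes. Scaled to library totals instead, which is the scale of the CPM values given here, the median gene was itself higher at E10.5 by 0.35 to 0.59 on the log2 scale, depending on the class. A CPM ratio between the stages therefore exceeds the fitted change. On that scale 28, 21, 24, 16, 13 and 17 members rose and 0, 0, 0, 2, 0 and 4 fell, and of all genes 5898, 3870, 4785, 4420, 3260 and 4547 rose and 809, 531, 710, 394, 404 and 1431 fell.

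**Figure D2:**
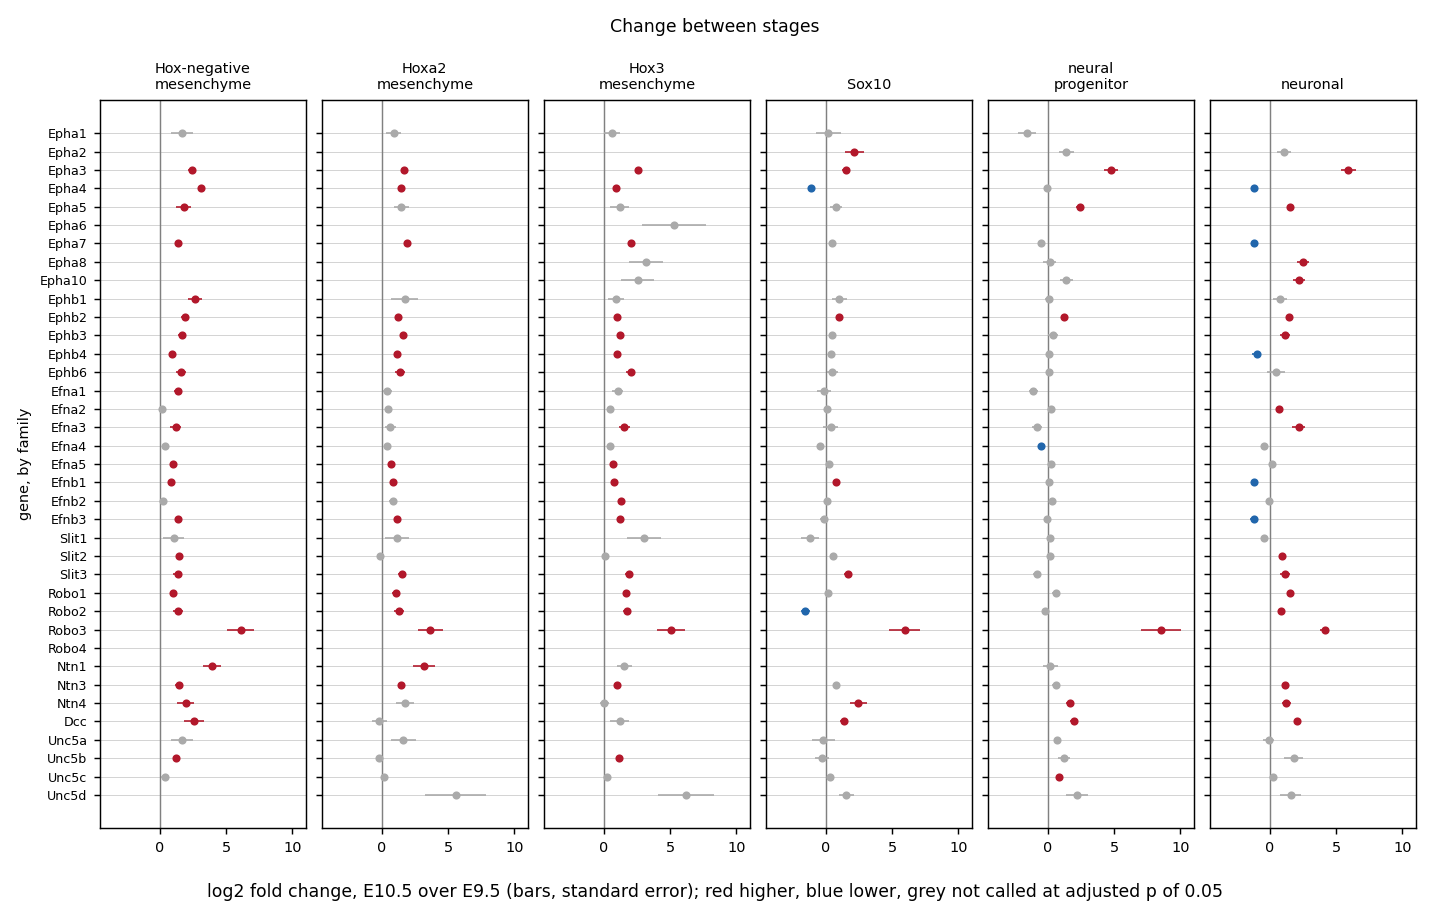
Fitted log2 change from E9.5 to E10.5 for each member in each class, with called changes marked. The 3 mesenchymal classes hold no called fall, and the falls sit in the neuronal, Sox10 and neural progenitor classes.

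Epha3, Epha4 and Epha7 rose together in mesenchyme and parted in other classes, and their promoters are shown for that reason. Epha3 lies at chr16:63543534-63864175 on the minus strand, Epha4 at chr1:77367185-77515088 on the minus strand and Epha7 at chr4:28813131-28967499 on the plus strand. The 250 bases before each annotated start are given 5′ to 3′ from RefSeq (GRCm38.p6), with CG pairs in capitals, at chr16:63864176-63864425 (minus), chr1:77515089-77515338 (minus) and chr4:28812881-28813130 (plus).
Epha3: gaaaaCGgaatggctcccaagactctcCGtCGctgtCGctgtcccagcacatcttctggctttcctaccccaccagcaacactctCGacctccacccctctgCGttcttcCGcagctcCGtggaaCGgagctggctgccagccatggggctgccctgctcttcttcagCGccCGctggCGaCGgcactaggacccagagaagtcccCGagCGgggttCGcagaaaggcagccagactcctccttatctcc
Epha4: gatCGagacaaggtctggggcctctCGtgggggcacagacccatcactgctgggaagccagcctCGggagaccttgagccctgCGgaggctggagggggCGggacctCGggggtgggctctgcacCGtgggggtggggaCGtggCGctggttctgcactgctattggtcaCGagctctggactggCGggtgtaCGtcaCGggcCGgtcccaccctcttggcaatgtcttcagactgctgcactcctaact
Epha7: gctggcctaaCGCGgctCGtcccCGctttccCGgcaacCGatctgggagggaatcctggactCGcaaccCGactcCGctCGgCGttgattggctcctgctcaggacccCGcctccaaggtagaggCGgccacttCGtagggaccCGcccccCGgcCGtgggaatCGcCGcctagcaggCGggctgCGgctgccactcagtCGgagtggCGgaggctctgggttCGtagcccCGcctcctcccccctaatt
These windows hold 16, 14 and 25 CG pairs (the letters CG, which read the same on both strands). Of 32851 promoter windows of that length, 25.4%, 29.4% and 10.7% hold as many or more. The median was 6 over all windows and 16.5 over the 32 members matched in the table.

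Epha3 was nearly absent at E8.5 and low at E9.5. In Hox-negative mesenchyme its level was 0.216 CPM at E8.5, 5.56 and 8.93 at E9.5 (control, null) and 63.9, 53.6, 45.6 and 59.8 at E10.5 (control 1, control 2, null 1, null 2). Every E10.5 library lay above both E9.5 libraries, and the log2 change was 2.41 ± 0.25 (SE; edgeR adjusted p = 3.6e-05). In Hox3 mesenchyme it went from 5.23 and 11.4 to 61.9, 54.8, 69.7 and 64.0 CPM, a log2 change of 2.58 ± 0.26 (edgeR adjusted p = 0.00039). It was also at 0.739 and 0.413 CPM in E9.5 neurons and at 54.3, 49.8, 21.3 and 51.8 in E10.5 neurons. That log2 change of 5.92 ± 0.55 rests on 6 UMIs at E9.5. In neural progenitors it rose from 0.692 and 0.640 to 22.0, 20.6, 11 and 35.8 CPM. Sox10 cells stayed low, at 0.825 and 1.72 CPM before and 3.12 to 7.63 after, a rise of 1.52 ± 0.31 on the log2 scale (edgeR adjusted p = 0.0064).

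Epha4 rose in mesenchyme and fell in the Sox10 and neuronal classes. In Hox-negative mesenchyme it went from 3.5 and 3.99 to 49.2, 42, 45.1 and 53.7 CPM, a log2 change of 3.11 ± 0.22 (edgeR adjusted p = 3.4e-06). The Hoxa2 and Hox3 classes already held 14.1 to 17.9 CPM at E9.5 and rose by 1.48 ± 0.20 and 0.94 ± 0.19. At E9.5 Epha4 was thus lower in the Hox-negative class than in either Hox class in both libraries, whereas at E10.5 the classes overlapped, from 34.3 to 67.2 CPM. In Sox10 cells it went the other way, from 16.2 and 16.4 to 7.44, 10.7, 10.3 and 9.57 CPM, and fell by 1.14 on the log2 scale (SE 0.20, edgeR adjusted p = 0.0024). With doublets kept the log2 change of Epha4 in Sox10 cells was -0.53 and was not called. The 7 mesenchymal markers of the Sox10 class also went down, from a sum of 210 and 227 CPM to 104, 90.6, 142 and 130 CPM, with 4 called lower and 1 higher, and their part in the fall of Epha4 was not tested. In neurons it fell by 1.16 (SE 0.26), from 93.6 and 77.0 to 56.9, 31.5, 64.5 and 39.9 CPM, but not with coarser clusters. Neural progenitors held 70.7 to 97.2 CPM at both stages, and their change was not called.

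Epha7 also rose in each mesenchymal class. In Hoxa2 mesenchyme it went from 7.93 and 11 to 40.0, 39.8, 43.1 and 57.3 CPM, a log2 change of 1.87 ± 0.20 (edgeR adjusted p = 0.00082), and the groups did not overlap. The rise was 2.07 ± 0.23 in Hox3 and 1.41 ± 0.26 in Hox-negative mesenchyme. In neurons it was at 47.1 and 23.5 CPM at E9.5 and at 18.7, 17.3, 21.6 and 16.6 CPM at E10.5, and fell by 1.22 on the log2 scale (SE 0.24), again not with coarser clusters. In Sox10 cells it was at 4.98 and 6.11 CPM at E9.5, then at 8.93, 12.1, 8.66 and 9.82 at E10.5, and its change of 0.45 ± 0.23 was not called.

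**Figure D3:**
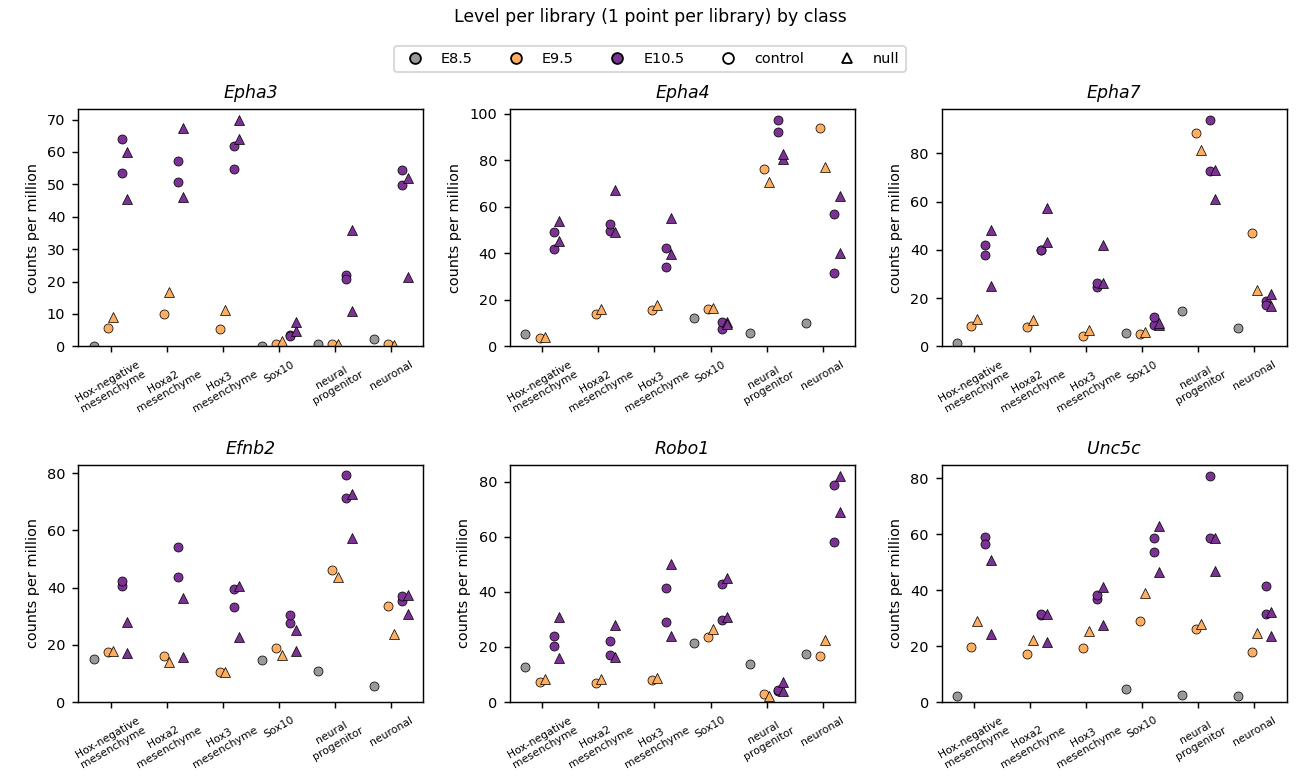
Level of Epha3, Epha4, Epha7, Efnb2, Robo1 and Unc5c in each class, 1 point per library in CPM, with E8.5, E9.5 and E10.5 side by side and control and null marked. The E10.5 points of Epha3, Epha4 and Epha7 lie above the E9.5 points in each mesenchymal class, and the Epha4 points fall with stage in Sox10 cells.

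The rise of Epha3 was also counted as a share of cells. At a fixed number of UMIs per cell this share moves with the level of the class. It is the rise counted in another way and cannot tell more cells with the transcript from more transcript per cell. With each cell thinned to 5000 UMIs and the Hox split made on the thinned counts, Epha3 was found in 2.66% and 3.68% of Hox3 cells at E9.5 and in 25.9%, 19.0%, 31.8% and 27.4% at E10.5. Without thinning the shares were 11.3% and 21.3%, then 60.9%, 46.6%, 75.2% and 64.2%. In Sox10 cells, the class with the lowest Epha3 level at E10.5, the thinned share was 0.597% and 0.615% at E9.5 and 1.39% to 3.40% at E10.5.

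Of the other EphA receptors, Epha2, Epha5, Epha8 and Epha10 were highest in neurons in all 4 E10.5 libraries. Epha5, which binds ephrin-A ligands on axons, was at 67.8 and 51.4 CPM in E9.5 neurons and at 197, 279, 173 and 225 at E10.5, a rise of 1.54 ± 0.22 (edgeR adjusted p = 0.00036), and it rose by 2.42 ± 0.33 in neural progenitors, where coarser clusters gave 0.48, not called. Its call in Hox-negative mesenchyme (1.81 ± 0.57) rested on 0.352 to 0.521 CPM at E9.5 and 0.677 to 6.14 at E10.5. Epha8 and Epha10 were called in neurons alone, by 2.51 ± 0.46 and 2.19 ± 0.48, from at most 3.32 to at most 20.3 CPM. Epha2 was called in Sox10 cells, where every library was below 1 CPM. Epha1 was highest in a mesenchymal class in each E10.5 library, at 0.868, 0.694, 0.974 and 1.39 CPM, and Epha6 did not pass 0.567 CPM anywhere. Both were tested and not called in any class. The largest change of Hox-negative mesenchyme that was not called was that of Epha1 (1.67 ± 0.84, edgeR adjusted p = 0.14).

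Of the EphB receptors, Ephb2, Ephb3, Ephb4 and Ephb6 rose in each mesenchymal class. Ephb6 lacks kinase activity. Ephb2 went from 2.77 and 3.13 to 11.6, 14.1, 14.9 and 27.1 CPM in Hox-negative mesenchyme (1.90 ± 0.27, edgeR adjusted p = 0.00027) and from 11.6 and 17.1 to 45.3, 42.3, 50.9 and 59.0 CPM in neurons (1.45 ± 0.20). It also rose by 1.00 ± 0.20 in Sox10 cells and 1.20 ± 0.21 in neural progenitors. Ephb3 rose by 1.26 to 1.64 in the mesenchymal classes and by 1.17 ± 0.37 in neurons, where it reached at most 5.84 CPM. Ephb4, the receptor of ephrin-B2 in vessels, rose by 0.94 to 1.12 in mesenchyme and fell by 1.00 in neurons (SE 0.32), from 4.62 and 5.78 to 2.63, 3.22, 4.53 and 2.84 CPM. Ephb6 rose by 1.36 to 2.03 from levels of 0.448 to 1.45 CPM. Ephb1 was called in Hox-negative mesenchyme alone (2.66 ± 0.51), with 1.13 to 2.56 CPM at E10.5.

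Among the ephrins, the transmembrane ligands Efnb1 and Efnb3 rose in each mesenchymal class by 0.76 to 0.86 and by 1.13 to 1.38. Efnb1 also rose in Sox10 cells, from 15.7 and 16.8 to 33.9, 32.3, 37.4 and 45.6 CPM (0.81 ± 0.18, edgeR adjusted p = 0.0098). The 6 neural progenitor markers of the Sox10 class summed to 42 and 39.4 CPM at E9.5 and to 117, 95.2, 91.1 and 158 CPM at E10.5, with 3 called higher and 1 lower, and their part in that rise was not tested. In neurons both fell, but neither was called with coarser clusters or with doublets kept. Efnb1 went from 34.9 and 33.9 to 17.4, 13.8, 21.6 and 23.1 CPM and fell by 1.22 on the log2 scale (SE 0.19, edgeR adjusted p = 0.00072), and Efnb3 went from 80.1 and 85.0 to 41.0, 27.0, 73.4 and 44.1 CPM and fell by 1.23 (SE 0.25). Every E10.5 library was below both E9.5 libraries for each gene.

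Efnb2, the ephrin that marks arteries, was called in Hox3 mesenchyme, where it went from 10.4 and 10.4 to 33.3, 39.5, 22.7 and 40.6 CPM (1.29 ± 0.24, edgeR adjusted p = 0.005). In the Hoxa2 class the level was 16.2 and 14.1 at E9.5, then 43.6, 54.1, 15.9 and 36.2 at E10.5. Null replicate 1, the library with fewer somites, thus lay with the E9.5 libraries, and the change was not called. The part of age in its level was not tested. Among the ephrin-A ligands, Efna5 rose by 0.67 to 0.97 in the mesenchymal classes, from 13.1 to 20.9 CPM up to 31.6 to 52.6. Efna1 rose in Hox-negative cells (1.38 ± 0.32) and Efna3 in the Hox-negative, Hox3 and neuronal classes, with mesenchymal levels of at most 7.16 CPM. Efna2 rose in neurons (0.70 ± 0.19). Efna4 fell in neural progenitors by 0.50 (SE 0.15, edgeR adjusted p = 0.049), a call that was lost when libraries were scaled to their totals.

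Robo1 and Robo2, receptors of Slits, rose in all mesenchymal classes. In Hox3 mesenchyme Robo1 went from 7.96 and 8.64 to 29.0, 41.3, 24.1 and 50.2 CPM (1.71 ± 0.29, edgeR adjusted p = 0.0036), and in neurons from 16.6 and 22.5 to 57.9, 78.8, 82.1 and 68.9 CPM (1.55 ± 0.22). Robo2 rose by 0.87 ± 0.28 in neurons, a change of -0.02 with coarser clusters. Robo2 in the Hox3 class went from 4.23 and 5.12 to 20.7, 24.1, 13.5 and 25.6 CPM (1.75 ± 0.28). The E10.5 range of each lay above its E9.5 range. Robo2 fell in Sox10 cells by 1.53 (SE 0.35), from 2.37 and 5.09 to 1.12, 2.20, 1.62 and 1.5 CPM, but with finer clusters (resolution 1.5) the change was 0.17.

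Of the ligands, Slit3 rose by 1.35 to 1.87 in mesenchyme, by 1.67 ± 0.31 in Sox10 cells and by 1.14 ± 0.35 in neurons, where finer clusters gave -0.11. In Hox3 cells it went from 2.99 and 3.52 to 16.6, 15.5, 11.2 and 20.1 CPM. Slit2 rose in Hox-negative mesenchyme, from 3.77 and 4.74 to 18.5, 15, 11.5 and 25.1 CPM (1.46 ± 0.28, edgeR adjusted p = 0.0017), and in neurons (0.88 ± 0.20). In the Hoxa2 and Hox3 classes Slit2 was already at 11 to 15.1 CPM at E9.5 and was at 11.2 to 22.7 at E10.5, with log2 changes of -0.15 ± 0.25 and 0.10 ± 0.21 that were not called. Slit1 was found in neural progenitors and neurons, at 9.73 to 19.4 CPM over both stages, and was not called.

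Netrins are made mostly by midline and epithelial tissue. In the mesenchymal classes of this lineage Ntn1 and Ntn4 were sparse, whereas Ntn3 was above 5 CPM at E10.5. Ntn3 rose by 1.02 to 1.45 in mesenchyme, with 8.36 to 23.0 CPM at E10.5, and by 1.17 ± 0.29 in neurons. Ntn1 was found in 1 to 8 UMIs per mesenchymal class at E9.5 and was at 0.418 to 2.31 CPM at E10.5, and its rise was called in the Hox-negative and Hoxa2 classes. Ntn4 rose in neural progenitors from 1.02 and 1.28 to 5.28, 5.62, 3.78 and 3.77 CPM (1.67 ± 0.29, edgeR adjusted p = 0.0041), in neurons (1.24 ± 0.35), and in Sox10 and Hox-negative cells from at most 0.215 CPM.

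Among netrin receptors, Unc5b rose in Hox-negative and Hox3 mesenchyme by 1.23 ± 0.27 and 1.11 ± 0.20 and not in Hoxa2 mesenchyme, where it was at 7.35 and 8.92 CPM at E9.5, then at 8.14, 5.17, 10.6 and 16.9 at E10.5. The difference between the classes was not tested. Unc5c was called in neural progenitors alone, from 26.2 and 27.9 to 58.5, 80.8, 46.9 and 58.6 CPM (0.86 ± 0.21, edgeR adjusted p = 0.022). In mesenchyme it was at 17.1 to 29.1 CPM at E9.5 and at 21.4 to 58.8 at E10.5. Unc5a and Unc5d were not called. Unc5d gave the largest uncalled log2 changes in 4 classes, in the Hoxa2 and Hox3 classes against 0 UMIs at E9.5, and Unc5b did so in neurons (1.79 ± 0.68, edgeR adjusted p = 0.062).

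Robo3 and Dcc marked the neuronal class at E10.5. Robo3, the Robo receptor of commissural axons before they cross the midline, was at 0 at E8.5 (73 cells), 3.88 and 10.3 CPM at E9.5 and 156, 139, 161 and 151 CPM at E10.5. The log2 change was 4.13 ± 0.32 (edgeR adjusted p = 1.3e-05), and the 4 E10.5 libraries lay within a narrow range. Dcc, the attractive netrin receptor, went from 42.1 and 58.8 to 296, 355, 222 and 228 CPM in neurons (2.07 ± 0.27) and from 5.46 and 6.57 to 30.2, 37.8, 17.8 and 35.0 CPM in neural progenitors (2.00 ± 0.29). The 5 neuronal markers of the neural progenitor class summed to 81.2 and 74.1 CPM at E9.5 and to 330, 335, 358 and 641 CPM at E10.5, and 4 of them rose. Their part in the rises of Dcc, Epha5, Epha3, Ephb2 and Robo3 there was not tested. With cells thinned to 5000 UMIs, Robo3 was in 1.36% and 4.03% of neurons at E9.5 and in 25.4% to 27.0% at E10.5 (1.90% and 5.38%, then 30.7% to 35.3%, without thinning), against at most 2.40% of mesenchymal cells that were Hox-negative on the thinned counts.

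In mesenchyme Robo3, Dcc and Epha5 were sparse beside the neuronal class. Robo3 had 0 to 2 UMIs per mesenchymal class at E9.5 and 0.236 to 4.49 CPM at E10.5. In E10.5 mesenchyme Robo3, Dcc and Epha5 lay at 0.17% to 3.59% of the neuronal level of the same library, and the 5 neuronal markers (Stmn2, Tubb3, Elavl3, Elavl4 and Dcx) at 0.057% to 3.57%. For both sets the highest values were those of null replicate 2. The part of neuronal RNA in these mesenchymal counts was not tested. The summed neuronal markers of the mesenchymal classes were also higher at E10.5 than at E9.5, as given above. In Sox10 cells Dcc went from 3.12 and 2.86 CPM (87 and 73 UMIs) to 6.33, 14.4, 7.13 and 12.2 CPM, a log2 change of 1.38 ± 0.33 (edgeR adjusted p = 0.013). The neuronal markers of the Sox10 class summed to 110 and 79.0 CPM at E9.5 and to 159, 134, 208 and 312 CPM at E10.5, with 3 of 5 called higher. Their part in the rises of Dcc, Ephb2 and Robo3 there was not tested.

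**Figure D4:**
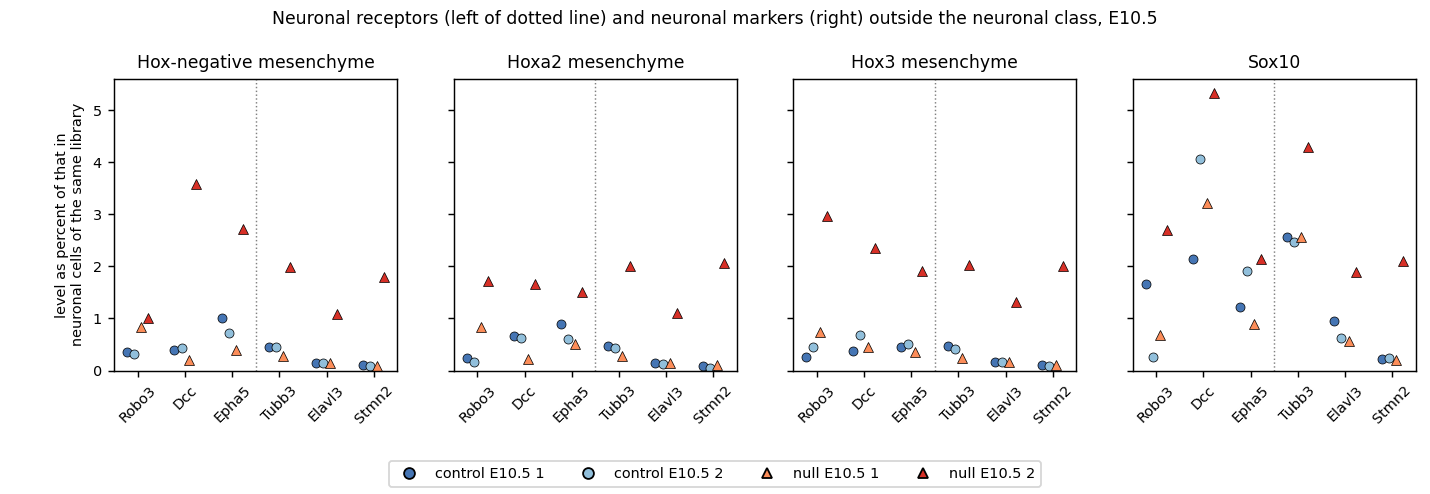
Level of Robo3, Dcc, Epha5 and the neuronal markers Tubb3, Elavl3 and Stmn2 in the mesenchymal classes and Sox10 cells at E10.5. Each point is 1 library, as a percent of the level in its neuronal cells. The points of null replicate 2 are the highest in each mesenchymal class.

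In the neuronal class the falls and the rises came with a change in make-up. The neural progenitor markers of that class summed to 669 and 574 CPM at E9.5 and to 182, 130, 286 and 208 CPM at E10.5, and its neuronal markers to 1626 and 1902, then 7184, 6498, 9108 and 7708 CPM. Its epithelial markers summed to 84.4 and 71.6, then 9.40, 7.90, 30.5 and 12.4 CPM, and 3 of 3 tested were called lower. All 5 neuronal markers of the class were called higher. The part of these changes in the falls of Epha4, Epha7, Efnb1 and Efnb3, all of them highest in neural progenitors at E10.5, was not tested. Their part in the rises called in neurons, such as those of Robo3, Dcc, Epha5 and Robo1, was not tested either. With coarser clusters (resolution 0.6) the log2 change in neurons was 0.07 for Epha4, 0.02 for Epha7, 0.25 for Efnb1 and -0.10 for Efnb3. In the reported fit these were -1.16, -1.22, -1.22 and -1.23. The cause was not tested. With doublets kept, Efnb1 had a log2 change of 0.24 and Efnb3 one of -0.72, which was not called.

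Other genes of the same pathways, from a list of 33 receptors, cofactors and intracellular partners, were followed in the same fits. In Hox-negative mesenchyme 10 of 28 tested rose, in Hoxa2 7 of 28 and in Hox3 8 of 28, against 16.5%, 10.4% and 14.4% of all genes, with 0 falls in each. They included Srgap1, a Robo partner (1.27, 1.10 and 1.11), the guanine exchange factor Kalrn (1.98, 1.5 and 1.95), the netrin receptor Neo1 (0.95, 0.81 and 0.66) and Flrt2, an Unc5 ligand (1.08, 1.56 and 0.87). In Sox10 cells 11 of 30 rose and 0 fell, against 11.9% and 10.4% of all genes. In neural progenitors 4 of 29 rose and 4 fell, against 7.44% and 6.26%, and in neurons 15 of 32 rose and 1 fell, against 19.1% and 17.5%. Ablim1, which links guidance receptors to actin, rose in each mesenchymal class (2.57, 1.93 and 1.81) and fell in neural progenitors and neurons (-1.83 and -2.09).

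Between genotypes at E10.5 no member was called in any class, with 2 control and 2 null libraries in the fit. Of all genes 0.217% were called in Hox-negative, 0.311% in Hoxa2 and 0.0221% in Hox3 mesenchyme, 0.0388% in Sox10 cells, 0.0210% in neural progenitors and 0.0227% in neurons (edgeR's quasi-likelihood test). DESeq2 also called 0 members. With no low count filter 8 were called: Efnb2 and Robo2 lower in Hox-negative cells, Efnb2 and Ntn1 lower and Robo3 higher in Hoxa2 cells, Robo3 higher in Hox3 cells (2.20 ± 0.47, edgeR adjusted p = 0.00032), and Robo3 and Unc5a higher in neural progenitors (Unc5a 1.01 ± 0.27, edgeR adjusted p = 0.025). Without that filter 2.05%, 3.09%, 2.18%, 1.58%, 0.930% and 0.907% of all genes were called in the 6 classes. At an unadjusted p under 0.05 there were 26 of 183 tests of a member in a class (14.2%), against 10.5% of the tests of all genes. By class these were 4 of 27, 6 of 30, 3 of 32, 3 of 28, 5 of 34 and 5 of 32.

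The largest uncalled differences were those of Robo3 in mesenchyme and neural progenitors. In Hoxa2 mesenchyme its level was 0.368 and 0.236 CPM in the controls (11 and 12 UMIs) and 1.35 and 2.59 CPM in the nulls (29 and 13 UMIs), with a log2 difference of 2.48 ± 0.57 (edgeR adjusted p = 0.16). In Hox3 mesenchyme it was 0.418 and 0.626 against 1.18 and 4.49 CPM (2.22 ± 0.63, edgeR adjusted p = 0.30), in the Hox-negative class 1.5 ± 0.71 and in neural progenitors 1.58 ± 0.65. The nulls lay above the controls in each. The neuronal markers of the mesenchymal classes summed to 151 to 155 CPM in null replicate 2 and to 22.1 to 22.4 CPM in null replicate 1, within the 21.4 to 26.7 CPM of the controls. Their part in the Robo3 differences of mesenchyme was not tested. In neural progenitors these markers summed to 330 and 335 CPM in the controls and to 358 and 641 CPM in the nulls, in the direction of Robo3, and their part in its difference was not tested. In neurons Robo3 did not separate the genotypes (156 and 139 against 161 and 151 CPM). The largest uncalled differences in the other classes were Ntn4 in Sox10 cells (2.23 and 2.11 against 0.472 and 1.54 CPM) and Unc5d in neurons (1.96 and 2.44 against 0.722 and 1.20 CPM), both lower in the nulls.

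Efnb2 and Robo2 were lower in the nulls without passing the reported test. In the classes given here both were called without the low count filter and with the replicate number as a block. In Hoxa2 mesenchyme Efnb2 was at 43.6 and 54.1 CPM in the controls and at 15.9 and 36.2 CPM in the nulls (log2 difference -1.10, edgeR adjusted p = 0.27). In Hox-negative mesenchyme Efnb2 was at 40.4 and 42.1 against 17.1 and 28.1 CPM (-0.98, edgeR adjusted p = 0.19), and Robo2 at 28.7 and 25.9 against 8.57 and 18.4 CPM (-1.18, edgeR adjusted p = 0.19). These groups did not overlap, but the 2 nulls were farther apart than the 2 controls. Efna2 was higher in the nulls in each class, for instance at 81.9 and 60.3 against 118 and 118 CPM in Hoxa2 mesenchyme (0.60, edgeR adjusted p = 0.37).

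Which members passed depended on the libraries. Without null replicate 1, which leaves kit version 3.1 alone, Dcc was called in Hox-negative cells, Robo3 in Hoxa2 cells, Epha5, Robo3 and Dcc in Hox3 cells and Robo3 in neural progenitors, all higher in the remaining null, which is the library with the high neuronal markers. In these 4 classes that fit called 1 of 29, 1 of 32, 3 of 34 and 1 of 35 members, and 2.17%, 4.79%, 6.85% and 0.507% of all genes. Without null replicate 2, Efnb2 and Robo2 were called lower in all 3 mesenchymal classes, and so were Unc5c and Slit3 in Hox-negative cells and Ntn1 and Dcc in Hoxa2 cells, whereas Efna2 in Hox-negative, Robo3 in Hoxa2 and Ephb4 in Hox3 cells were called higher. In neurons Efnb3 was called higher and Epha3 lower. That fit called 5 of 29, 5 of 31 and 3 of 32 members in the mesenchymal classes and 2 of 32 in neurons, where 9.79%, 5.98%, 9.82% and 5.28% of all genes were called. With 1 null library left, its spread is taken to be like that of the controls. Without null replicate 2 the null left was on kit version 3 and the controls on version 3.1. In that fit kit and genotype cannot be told apart, and the null left was also the library with fewer somites.

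The genotype difference was not called as differing between E9.5 and E10.5 for any member (edgeR interaction term), where 0.0274%, 0.00713%, 0.00709%, 0.0348%, 0.0136% and 0.0144% of all genes were called (Hox-negative, Hoxa2, Hox3, Sox10, neural progenitor, neuronal). Of 196 tests of a member in a class 9 had an unadjusted p under 0.05 (4.59%, against 3.48% of the tests of all genes), and DESeq2 called 0. E9.5 had 1 library per genotype, so this test had little power. The p-values cover the spread between libraries, each a pool.

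At E9.5 the genotypes could be compared only as 1 library each, with different kits and no test. Genes were read with at least 20 UMIs over both libraries and 5 CPM in 1 of them. Past 2-fold were Epha3 in Hox3 mesenchyme, Robo2 in Sox10 cells, and Epha7 and Robo3 in neurons, with 0 such members in the other 3 classes. Of all genes within these limits 0.792%, 1.15%, 1.39%, 0.865%, 0.696% and 1.92% were past 2-fold in the 6 classes. Members under 5 CPM in both libraries were left out. Among them were Slit3 in Sox10 cells (28 and 71 UMIs, log2 ratio 1.40) and Ephb1 in neural progenitors (66 and 27 UMIs, -1.05). Epha3 was at 5.23 CPM in the control and 11.4 in the null (log2 ratio 1.04, 95% counting interval 0.68 to 1.40), and Robo2 at 2.37 and 5.09 (1.04, 0.61 to 1.5). Epha7 was at 47.1 in the control and 23.5 in the null (-1.01, -1.34 to -0.69), and Robo3 at 3.88 and 10.3 (1.38, 0.64 to 2.21, on 21 and 50 UMIs). The intervals cover counting error only and not the difference between embryos or kits. None of these 4 differences was called at E10.5.

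Within E10.5 mesenchyme the members followed different territories. The clusters were made without the members' own counts, and their values in the 2 controls are a description. Robo2 was at 51.0 and 61.6 CPM in the cluster led by Foxf1 and Hand1 and at 6.92 to 24.4 CPM in the others. Robo1 was at 37.4 to 54.1 CPM in the clusters led by Bdnf and Six2, which also had the highest Hox3 levels (175 to 182 CPM), and at 15.9 to 28.1 CPM elsewhere. The cluster highest for Robo2 was not among those highest for Robo1.

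Efnb2 was highest in the Dlx5-led clusters, at 55.0 to 69.4 CPM against 19.2 to 44.0 CPM elsewhere. Epha3 was lowest in the cluster led by Cyp26a1, Pax9 and Lhx8, at 21.1 and 12.9 CPM, and highest in the Hand2-led cluster, at 133 and 112 CPM. Unc5c was also lowest in the Cyp26a1 cluster, at 6.87 and 5.30 CPM, where Epha4 (60 and 58.1 CPM) and Epha7 (49.9 and 46.7 CPM) were in the upper part of their ranges. Unc5b was at 22.4 to 37.4 CPM in the Foxf1, Dkk1 and Hand2 clusters and at 2.20 to 18.4 CPM in the others.

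The Dlx5-led clusters held 503 and 528 cells of control 1 and 1197 and 1062 of control 2, but 128 and 156 cells of null 1 and 15 and 9 of null 2. In null 1 those cells had Efnb2 at 19.6 and 22.1 CPM and Epha3 at 128 and 107 CPM, against 42.5 to 54.6 CPM of Epha3 in the controls. This is 1 library, and the difference was not tested. The clusters were made after the libraries were integrated, so cell numbers and levels by genotype within a cluster depend on that step. No member was called between the genotypes with or without the Dlx5-led clusters, so the calls do not tell their part in the differences.

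**Figure D5:**
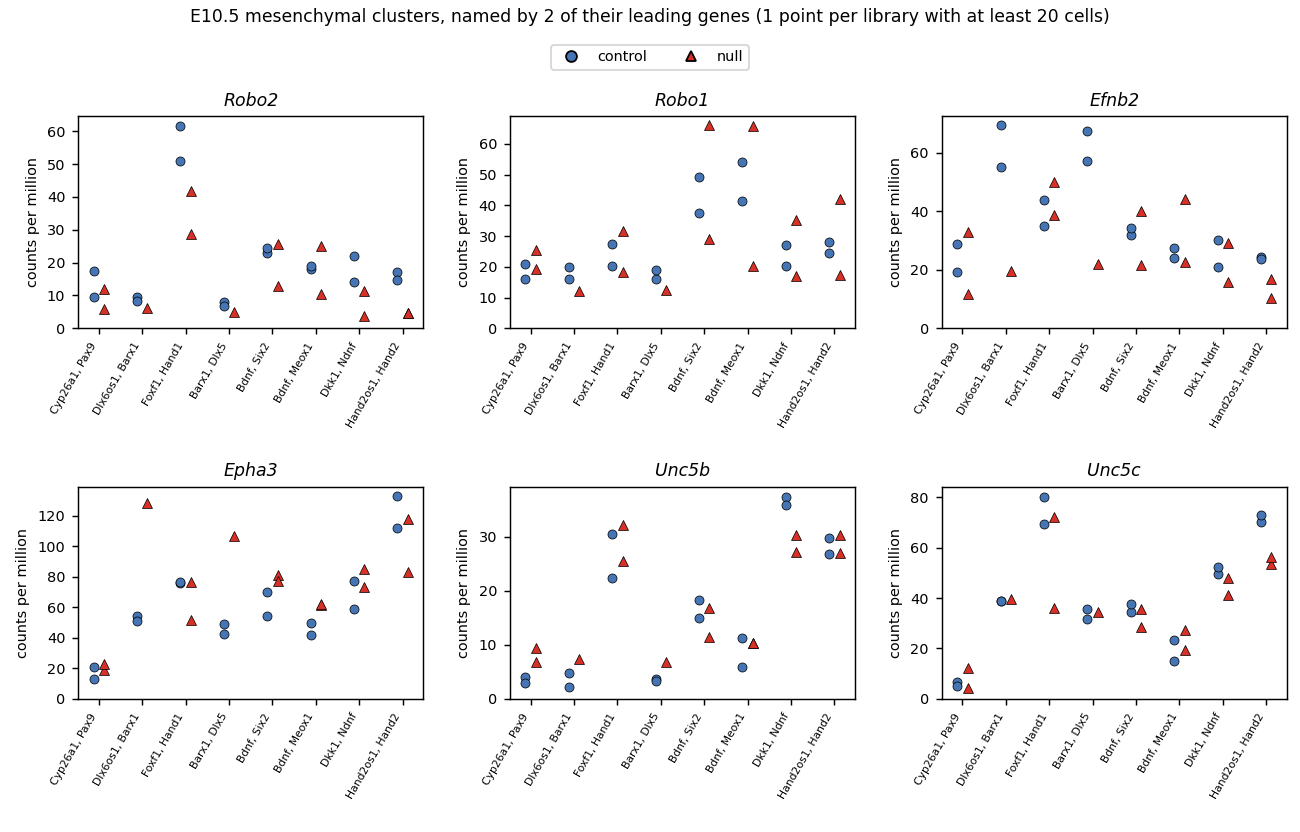
Level of Robo2, Robo1, Efnb2, Epha3, Unc5b and Unc5c in the E10.5 mesenchymal clusters, 1 point per library in CPM. Robo2 peaks in the Foxf1 cluster, Robo1 in the Six2 clusters and Efnb2 of the controls in the Dlx5 clusters.

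UMIs of more Eph receptors, and more often of both an Eph receptor and an ephrin, were found per mesenchymal cell at E10.5. The Hox split was made on the thinned counts, which left 1535, 3916, 883 and 458 E10.5 cells in the Hox-negative class in place of 689, 2110, 210 and 101, so that class here also holds cells with Hox UMIs before thinning, for the shares without thinning as well. With cells thinned to 5000 UMIs, a Hox-negative mesenchymal cell had UMIs of 0.104 different Eph receptors on average at E8.5, 0.177 and 0.241 at E9.5, then 0.939, 0.813, 0.883 and 1.07 at E10.5. The share with UMIs of both an Eph receptor and an ephrin was 3.97% at E8.5, 8.58% and 11.6% at E9.5, then 45.9%, 40.9%, 44.5% and 55.5% at E10.5 (35.4%, 54.8% and 60.5%, then 83.8% to 97.8%, without thinning). In neural progenitors the thinned share was already 38.5% and 37.1% at E9.5 and was 47.1% to 53.1% at E10.5, and in Sox10 cells it went from 10.7% and 12.1% to 18.8% to 25.0%. UMIs of the neuronal gene Robo3 were found in 0.326%, 0.281%, 0.680% and 2.40% of the thinned Hox-negative mesenchymal cells at E10.5, and the part of free RNA in the shares was not tested. Blood markers, for comparison, summed to 4.09 to 6.53 CPM in the 6 classes of null replicate 2.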

How the data were processed

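The deposited files were gene by cell matrices of raw UMI counts, which the authors made from 10x 3′ libraries with Cell Ranger 6.0.1 and mm10; per the labels, EGFP+ DAPI- cells were sorted. Barcodes under 1000 genes or over 10% mitochondrial UMIs were dropped. Doublets were called (scrublet in scanpy 1.11.5, 0.8% per 1000 barcodes) and removed. Each stage was clustered in Seurat 5.3.0 (2000 variable genes without the members, 30 components, Louvain resolution 1). The variable genes also left out the other pathway genes and Hox, globin, mitochondrial, Y-linked, Xist and Tsix genes. At E9.5 and E10.5 the libraries of a stage were integrated by reciprocal PCA before clustering. Clusters were named by fixed marker lists. UMIs of a class were added up within each library and tested over all genes with edgeR 4.0.16 (TMM, filterByExpr, quasi-likelihood; R 4.3.3), leaving out a library with under 20 cells of a class. The study tested single cells, which are not replicates. DESeq2 1.42.0 was an alternative. The tests were also run on simulated counts with 200 genes changed by 2-fold. Those counts had the same dispersion for all genes and no kit, replicate or library effect. They cannot show how the tests behave with the spread of these libraries. At E9.5, with 1 library per genotype, ratios carry a 95% counting interval (0.5 UMIs added, at least 20 UMIs in both libraries together and 5 CPM in 1 of them). Each gene called in any class or contrast was named, as was the largest uncalled change per class. The members, the lists and the tests were chosen with earlier results of these data known. Promoters came from RefSeq (GRCm38.p6).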

Additional observations from a re-analysis of the deposited data

How the results depend on the processing

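Of 97 called stage changes of a member in a class, 22 were called under every alternative that tested them. Other than leaving out a library, 57 were called under every alternative that tested them. A change not tested under an alternative, such as Robo3 in Hoxa2 mesenchyme with thinned cells, was not counted as lost. These counts were not made for all genes. Changed direction: at resolution 0.6 in neurons Epha4 (0.0697), Epha7 (0.0165), Efnb1 (0.25) and Robo2 (-0.0220), at resolution 1.5 Robo2 in Sox10 cells (0.17) and Slit3 in neurons (-0.11), and with doublets kept Efnb1 in neurons (0.24). The cause was not tested. The members called for stage numbered 10 of 21 tested in Hoxa2 mesenchyme with thinned cells (16 of 32 in the reported fit; 16.2% and 19.4% of all genes), 10 of 33 in neurons at resolution 0.6 and 12 of 35 with doublets kept (21 of 32; 23.7%, 25.3% and 36.6% of all genes), and, scaled to library totals (an alternative added after seeing the data, as was leaving out the Dlx5-led clusters), 18 of 32 in Sox10 cells (10) and 13 of 35 in neural progenitors (8), with 33.5% and 24.8% of all genes (22.3% and 13.7%). Leaving out each library in turn gave 11 to 25 (Hox-negative), 1 to 19 (Hoxa2), 3 to 25 (Hox3), 2 to 13 (Sox10), 3 to 8 (neural progenitor) and 8 to 22 (neuronal), the lowest of each without the control E9.5 library. For genotype at E10.5 it gave 0 to 5, 0 to 5, 0 to 3, 0 to 0, 0 to 1 and 0 to 2 members in the same order. The highest stage counts in mesenchyme came without null replicate 1 at E10.5. They were 25 of 32 members (Hox-negative), 19 of 32 (Hoxa2) and 25 of 34 (Hox3). In the same fits 42.2%, 34.1% and 40.2% of all genes changed. The highest stage counts of the Sox10, neural progenitor and neuronal classes stand without such a share. The shares of all genes are given above for the fits without an E9.5 library. They are also given there for each genotype fit that called a member without a null library. With no low count filter 2, 3, 1, 0, 2 and 0 members were called between genotypes, and 2.05%, 3.09%, 2.18%, 1.58%, 0.930% and 0.907% of all genes. At E9.5 the members past 2-fold were 2 in Hoxa2 mesenchyme with thinned cells, where 299 of 7753 genes were past 2-fold (99 of 8617 in the reported run). With 5 UMIs added they were 0 in Sox10 cells and 1 in neurons, with 73 of 8666 and 115 of 9104 genes (75 of 8666 and 175 of 9104 in the reported run). In neurons 1 was past 2-fold with at least 100 UMIs (67 of 7019 genes) and 1 with library totals (174 of 9104).

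The replicate numbers at E10.5 give only 2 pairs, and no label ties a number to a shared litter or day. Same-numbered libraries deviated together (correlation over genes 0.314 to 0.424 by class). With the replicate number as a block, 2 of 27 members were called between genotypes in Hox-negative mesenchyme (Efnb2, Robo2), 2 of 30 in Hoxa2 mesenchyme (Efnb2, Robo3), 1 of 32 in Hox3 mesenchyme (Robo3), 1 of 28 in Sox10 cells (Efna2), 2 of 34 in neural progenitors (Unc5a, 1.04 ± 0.23, and Ephb3, 1.11 ± 0.36, both higher in the nulls) and 0 of 32 in neurons. The same fits called 1.77%, 3.71%, 2.89%, 5.44%, 4.33% and 1.22% of all genes.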
